A study of Mus musculus with 6 samples.

Results

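The AP-1 family of transcription factors was followed in the mouse cochlear nucleus, the brainstem station where the auditory nerve ends, after the nerve had been silenced from 1 ear. The family was taken as 8 genes: the Fos-type Fos, Fosb and Fosl2, the Jun-type Jun, Junb and Jund, and the partners Atf3 and Maff. All probe sets whose only gene symbol in the platform annotation was 1 of these were kept, which gave 9 probe sets of 22690 (8 of 12393 named genes), 2 for Jun and 1 for each other gene. The ipsilateral group was the nucleus on the side of a cochlea infused for 24 h, from an osmotic pump, with tetrodotoxin, a toxin that blocks sodium channels and with them action potentials, and the contralateral group was the nucleus of the other side, both from mice at postnatal day 21. Each group had 3 samples called biological replicates, pooled over 10 to 12 mice and read on 1 Affymetrix array apiece. The labels name neither strain nor sex, and no group came from mice without an infusion, so the contralateral level is that of the other side of infused mice and not an untreated level.

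AP-1 is not 1 protein but a set of dimers. Its members carry a basic region that binds DNA and a leucine zipper through which they pair. Fos-type proteins cannot pair with each other and need a Jun-type partner, whereas Jun-type proteins also pair among themselves, and Atf3 and Maff join through the same kind of zipper. In neurons Fos, Fosb and Junb are immediate early genes: calcium entry during firing activates CREB and SRF at their promoters within minutes, and Fos messenger RNA is short-lived. Jun is also switched on by the JNK kinases after axon damage and other stress, and Jund is made at a steady level in many cells.

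The start-site regions of the members are where the signal from firing is read, so 4 of them are shown, those of the genes whose values differed most between the sides. They are the 250 bases before the RefSeq transcript start (build GRCm38.p6), written 5′ to 3′ on the strand of the gene, with the motifs that were searched in capitals. Fos lies on the plus strand of chromosome 12 (window chr12:85473640-85473889), Jun on the minus strand of chromosome 4 (chr4:95052223-95052472), Junb on the minus strand of chromosome 8 (chr8:84978749-84978998) and Maff, of which the second of 3 annotated starts is shown, on the plus strand of chromosome 15 (chr15:79347270-79347519).
Fos: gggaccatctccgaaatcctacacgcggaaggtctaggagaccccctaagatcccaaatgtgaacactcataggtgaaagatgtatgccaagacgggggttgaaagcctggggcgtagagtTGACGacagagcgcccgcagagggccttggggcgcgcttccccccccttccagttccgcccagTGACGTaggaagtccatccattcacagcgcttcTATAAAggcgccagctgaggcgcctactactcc
Jun: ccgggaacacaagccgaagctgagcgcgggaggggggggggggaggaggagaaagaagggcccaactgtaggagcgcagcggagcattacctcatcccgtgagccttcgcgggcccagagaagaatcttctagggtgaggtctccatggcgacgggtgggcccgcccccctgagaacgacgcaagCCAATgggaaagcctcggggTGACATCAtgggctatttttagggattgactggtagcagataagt
Junb: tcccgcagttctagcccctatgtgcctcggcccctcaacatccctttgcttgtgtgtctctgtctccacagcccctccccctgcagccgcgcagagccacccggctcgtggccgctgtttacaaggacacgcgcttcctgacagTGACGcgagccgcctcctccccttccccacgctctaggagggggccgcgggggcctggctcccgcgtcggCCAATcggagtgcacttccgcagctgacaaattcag
Maff: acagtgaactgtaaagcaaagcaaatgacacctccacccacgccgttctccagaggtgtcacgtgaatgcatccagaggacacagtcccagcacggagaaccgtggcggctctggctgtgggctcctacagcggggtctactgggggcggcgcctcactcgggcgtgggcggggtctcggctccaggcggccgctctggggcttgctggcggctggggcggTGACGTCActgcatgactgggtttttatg

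Sequences of all 8 members matched, with 10 start-site windows, and the same 250 bases of 32851 RefSeq start sites gave the background. Both strands were searched. Members are counted by gene, with 3 windows for Maff, whereas the background is counted by window. The CRE core TGACGT, which CREB recognises, was found 66 bases before the start of Fos, as well as in Maff and Atf3. It was thus in 3 of 8 members, or 3 of 10 windows, against 6.47% of all windows. The full CRE TGACGTCA was found in Maff, 29 bases before the start shown, against 1.55% of all windows, and it contains the core on both strands. The shorter form TGACG, which every core contains, was in 5 of 8 members (Fos, Fosb, Junb, Atf3 and Maff), or 6 of 10 windows, against 17.8% of all windows. The AP-1 site TGACTCA was in 0 of 8 members, against 4.46% of all windows. Jun instead holds TGACATCA, 45 bases before its start, the variant known from the human JUN promoter as a binding site of Jun itself; a window of Maff has it too, and 2.93% of all windows do. A TATA box (TATAAA) was found in Fos, 33 bases before the start, against 12.4% of all windows, and CCAAT boxes in Jun and Junb, against 33.8%. No CArG box, the core of the SRF site, was in these windows, against 1.47% of all windows. Bases farther than 250 before a start were not searched, so an SRF site there would have been missed. All the motifs named are matches of letters and not measured binding.

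Fos was lower on the infused side by more than any other member. Jun was higher, Junb and Maff were lower, and Jund lay close to 0, so the Jun-type members did not share a direction on average. Junb overlapped between the sides, Fosb was too dim to test and Fosl2 was dim. Whether direction follows the Fos or Jun type therefore cannot be told from these arrays. Of the 7 member probe sets bright enough to test, 0 passed the threshold on p adjusted over all 15298 probe sets tested (limma, Benjamini-Hochberg, 0.05), as did 0 of those 15298, or 0%, of which 364 had an unadjusted p below 0.05. The adjusted p was 1.00 for each of the 15298, so the unadjusted limma p-values given for single genes rank them and pass no corrected threshold. The differences below therefore describe 6 arrays and none of them passed the test over all genes. By the looser rule of an unadjusted p below 0.05 in limma, 4 of the 7 tested member probe sets were counted, 2 lower (Fos and Maff) and both of Jun higher, where 2.38% of all probe sets tested were counted (1.22% lower and 1.16% higher). Of the 7, 5 were lower on average, where 51.8% of all probe sets tested were. Lower in 3 of 3 replicates were 3 of them (Fos, Junb and Maff), against 13.0% of all, and higher in 3 of 3 were both of Jun, against 10.7%. Junb averaged 3.92 ipsilaterally, so it was among the tested only through its contralateral mean of 4.75. The 8 genes and these counts were picked with results of these arrays known, so the shares are not independent evidence.

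The values are GCRMA expression values on the log2 scale, in which a difference of 1 means 2 times the signal. The medians of the arrays ranged from 5.86 to 5.91. Probe sets that averaged 4 or less over the 6 arrays were not tested, because GCRMA presses dim signals toward its floor. That left out Fosb, at 2.27, and Atf3, at just under the minimum, while Fosl2 at 4.23, Junb at 4.34 and Maff at 4.43 stood just above it. Precision is limited by the number of arrays, and with 3 arrays a side, taken as unpaired, the smallest two-sided p an exact permutation test allows is 0.1. These samples are whole pieces of tissue, in which fewer cells of a type and less RNA per cell cannot be told apart. The contents of the pieces were not even. The choroid plexus, the fluid-secreting tissue beside the nucleus, had 10 of 10 tested markers lower on average, with a mean log2 level of 8.81, 4.88 and 5.13 on ipsilateral arrays 1 to 3 and of 7.85, 7.61 and 7.15 on the contralateral arrays. Its summed linear signal ran from 3968 to 61874 ipsilaterally and from 38727 to 52393 contralaterally. Its marker Kcne2, at 8.33 on ipsilateral array 1, was down to 2.78 and 2.75 on ipsilateral arrays 2 and 3. Ttr was lower on the same arrays, at 11.87 and 12.98, against 15.85 on ipsilateral array 1. On the contralateral arrays Ttr lay between 15.21 and 15.65. Microglial markers were higher in 10 of 10 cases, at a mean log2 level of 7.31 to 7.44 ipsilaterally and 7.10 to 7.33 contralaterally, with summed linear signals from 2511 to 2841 and from 2197 to 2607. An unadjusted limma p under 0.05 was found for 3 of these 10, against 2.43% of all genes tested and 0 of 10 choroid plexus markers. Oligodendrocyte markers were higher in 7 of 7 cases, with summed linear signals that did not overlap, from 94706 to 101870 ipsilaterally and from 88507 to 91585 contralaterally. Astrocyte markers were higher in 7 of 8, with sums from 19461 to 20355 and from 18257 to 19738. Of the neuronal markers 5 of 8 were higher, and of the vascular endothelium markers 5 of 8 were lower. Of 10 cochlear nucleus markers 5 were tested, among them the potassium channel genes Kcna1 (mean 11.01) and Kcnc1 (8.57) and the glycine receptor gene Glra1 (5.35), while the glycine transporter gene Slc6a5 (3.03) and Hoxb3 (3.96) were too dim. Cerebellar granule and Purkinje cell markers averaged 9.83 to 10.41 on the ipsilateral and 9.95 to 10.38 on the contralateral arrays, highest on array 3 of both sides.

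**Figure D1:**
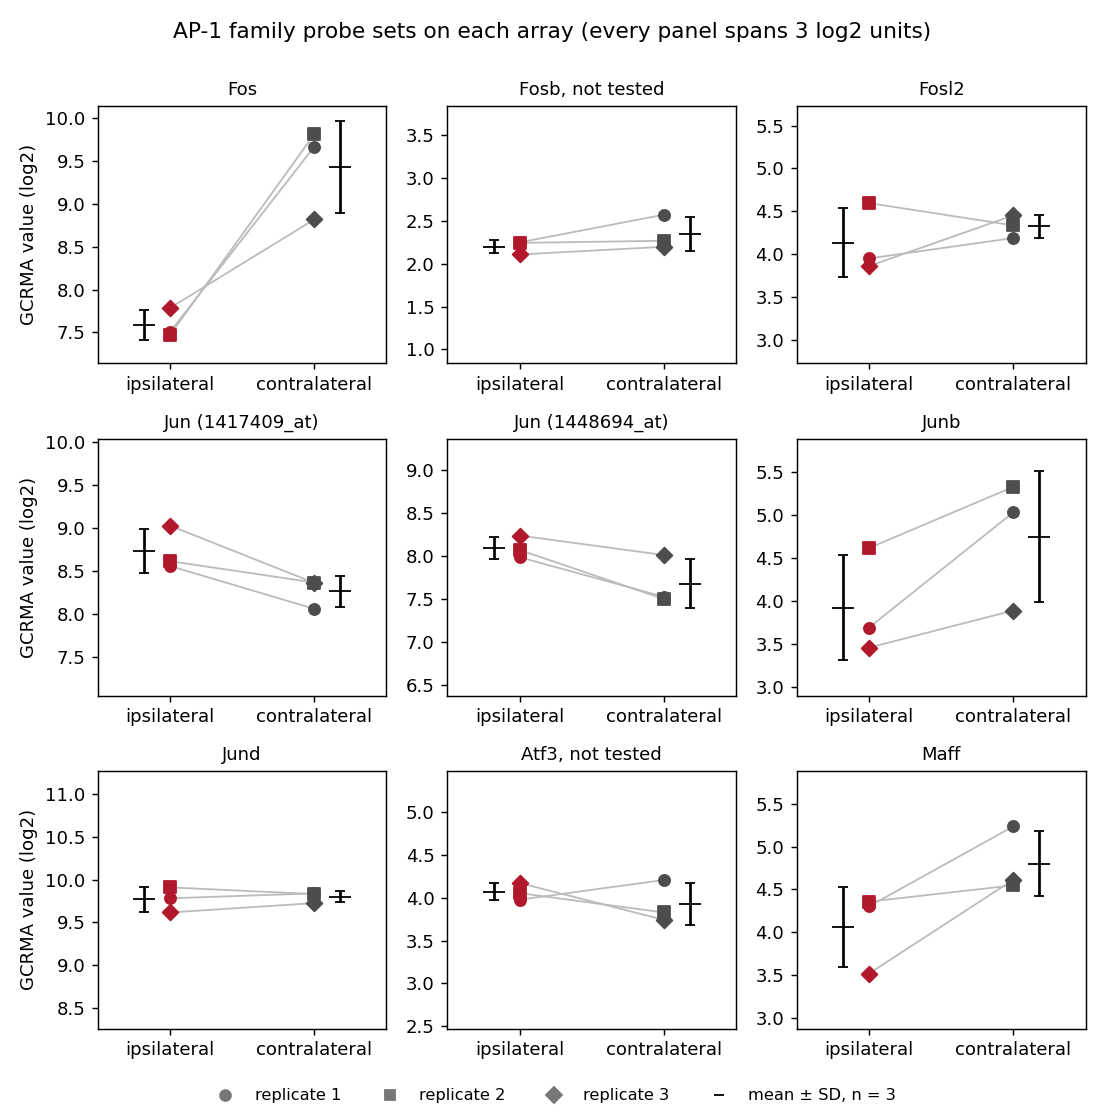
GCRMA values (log2, y axis) of the 9 AP-1 family probe sets on the 3 ipsilateral (red) and 3 contralateral (grey) arrays, with arrays of the same replicate number joined, the mean and SD beside them, and every panel spanning the same range. Fos lies between 7.47 and 7.79 on the ipsilateral arrays and between 8.82 and 9.81 on the contralateral arrays, both Jun probe sets slope the other way, and Jund is nearly level.

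Fos encodes the founding member, a transcription factor that pairs with Jun-type proteins and whose messenger RNA is a standard mark of recent firing. It measured 7.51, 7.47 and 7.79 on the ipsilateral arrays of replicates 1 to 3, against 9.67, 9.81 and 8.82 on the contralateral arrays. The sides did not overlap: the highest ipsilateral value was 1.03 below the lowest contralateral one. The ipsilateral arrays lay close together and the contralateral ones did not, with replicate 3 lower than the other two. Ipsilateral Fos averaged 7.59 ± 0.17 and contralateral Fos 9.43 ± 0.54 (log2, SD, n = 3 each), a difference of -1.85 (SE 0.26, 95% confidence interval -2.47 to -1.23), or a 3.59-fold lower signal. By replicate number the difference was -2.16, -2.34 and -1.03. Of the 15298 probe sets, Fos had the second smallest unadjusted p (limma, 0.000215) and ranked 7 by lowest difference, but its adjusted p was 1.00. The exact permutation test gave p = 0.1, the smallest it can give. Only 15 probe sets, or 0.0981% of those tested, had a difference of -1 or lower. Ipsilateral array 1, with the highest choroid plexus level of all, had Fos at 7.51, and ipsilateral array 2, with the lowest, had it at 7.47. With the level of those markers in the model the difference was -1.84, a setting chosen after the data were seen. Ipsilateral array 1 alone, the only one not low in the markers, stood -1.93 from the contralateral mean, which is 1 array against 3 and no check by replicates. The part of choroid plexus content in the Fos values was not tested. Without contralateral replicate 3 the difference between the sides was -2.15, with the adjusted limma p at 0.0865.

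Fosb, whose shortened splice form is stable and builds up with repeated activity, measured 2.25, 2.24 and 2.11 on the ipsilateral arrays and 2.57, 2.27 and 2.20 on the contralateral arrays. Its mean was above that of only 3.53% of all probe sets, and it was not tested. In a fit without the filter its difference was -0.15 with a 95% interval of -0.43 to 0.14. Fosl2, which encodes Fra-2, a Fos-type protein that lacks a strong activation domain, measured 3.95, 4.60 and 3.86 ipsilaterally and 4.19, 4.34 and 4.45 contralaterally. The sides overlapped, and ipsilateral replicate 2 was the highest array of all. The difference of -0.19 (95% interval -0.67 to 0.29) was negative in 2 of 3 replicates, and the interval takes in both a modest decrease and a small increase.

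Jun encodes the main partner of Fos and was read by 2 probe sets. The brighter, 1417409_at, measured 8.56, 8.62 and 9.03 on the ipsilateral arrays and 8.06, 8.37 and 8.36 on the contralateral arrays. The sides did not overlap, with a gap of 0.19, and ipsilateral replicate 3 was the highest. Its means were 8.73 ± 0.26 ipsilaterally and 8.26 ± 0.18 contralaterally (SD, n = 3 each), a difference of 0.47 (SE 0.16, 95% interval 0.10 to 0.85), or a 1.39-fold higher signal. The other, 1448694_at, measured 7.99, 8.07 and 8.24 ipsilaterally and 7.52, 7.50 and 8.01 contralaterally, so that contralateral replicate 3 just reached into the ipsilateral range. It gave 0.42 (SE 0.16), a 1.34-fold higher signal. Both were higher in 3 of 3 replicates, and the differences by replicate were 0.50, 0.25 and 0.67 for the brighter and 0.46, 0.57 and 0.23 for the dimmer, so the probe sets gave the same direction but ranked the replicates differently. The unadjusted limma p was 0.0211 and 0.0349, and the adjusted p 1.00 for both. The exact two-sided permutation test gave p = 0.1 for the brighter probe set and 0.2 for the dimmer one. Jun was less stable than Fos against single arrays: without contralateral replicate 1 the brighter probe set gave 0.37 (limma unadjusted p = 0.0717), and without ipsilateral replicate 3 it gave 0.32 (unadjusted p = 0.0522). The dimmer one gave 0.34 without contralateral replicate 1 (unadjusted p = 0.109), 0.33 without contralateral replicate 2 (unadjusted p = 0.110), 0.43 without ipsilateral replicate 2 (unadjusted p = 0.0653) and 0.35 without ipsilateral replicate 3 (unadjusted p = 0.102). With the level of choroid plexus markers in the model the probe sets gave 0.38 (unadjusted p = 0.0687) and 0.34 (unadjusted p = 0.105). Ipsilateral array 1 alone, the only one not low in those markers, stood 0.30 and 0.31 above the contralateral means. Microglial markers were also higher ipsilaterally, as were oligodendrocyte markers in 7 of 7 cases and astrocyte markers in 7 of 8. Contralateral replicate 3 was the highest contralateral array for all 3 lists by mean log2 level. For astrocytes the lead was narrow (9.904 against 9.900 on replicate 1), and by summed signal replicate 1 was higher. Replicate 3 was also the highest contralateral array for the dimmer Jun probe set. For the brighter one it was not, with replicate 2 at 8.366 and replicate 3 at 8.362. On the ipsilateral side the order differed. Replicate 3 was the highest ipsilateral array for both Jun probe sets but the lowest for microglial (7.31) and astrocyte markers (9.90). Oligodendrocyte markers were highest on ipsilateral replicate 2 (13.11). The part of these cell types in the Jun values was not tested.

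Junb, an immediate early Jun-type factor that pairs with Fos and activates more weakly than Jun, measured 3.69, 4.62 and 3.46 on the ipsilateral arrays and 5.03, 5.33 and 3.89 on the contralateral arrays. It was lower in 3 of 3 replicates, by -1.34, -0.71 and -0.43, yet the sides overlapped because contralateral replicate 3 was lower than ipsilateral replicate 2. The difference was -0.83 (SE 0.44, 95% interval -1.87 to 0.21), with an unadjusted limma p of 0.101, an adjusted p of 1.00 and an exact two-sided permutation p of 0.2. With the replicate number as a block the SE was 0.19, the interval -1.34 to -0.32 and the unadjusted limma p 0.00929, with an adjusted p of 0.991. The block takes arrays of a number as both sides of the same mice, which the labels do not state, and the deviations of same-numbered arrays correlated at 0.09, 0.04 and 0.57. That fit raised the count of member probe sets at an unadjusted p under 0.05 to 5 of 7, against 3.72% of all probe sets. Of the 6 Junb values 3 lay below 4, where GCRMA differences are uncertain. Its mean was 3.92 ipsilaterally and 4.75 contralaterally, so it passed the minimum of 4 only through the side where it was higher.

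Jund, the Jun-type member with the steadiest expression in most tissues, measured 9.78, 9.91 and 9.62 ipsilaterally and 9.84, 9.83 and 9.73 contralaterally. All 6 arrays lay within 0.29 of each other, the narrowest range of the 9 probe sets, and the sides overlapped throughout. The difference was -0.03 (95% interval -0.28 to 0.22), so these arrays leave room for a change of up to about that size in either direction but not for one as large as that of Fos.

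Maff, a small Maf protein that has a zipper but no activation domain, measured 4.30, 4.36 and 3.52 ipsilaterally and 5.24, 4.55 and 4.61 contralaterally. The sides did not overlap, with a gap of 0.19, ipsilateral replicate 3 being the lowest and contralateral replicate 1 the highest. The difference was -0.74 (SE 0.28, 95% interval -1.40 to -0.08), a 1.67-fold lower signal, with an unadjusted limma p of 0.0328, an adjusted p of 1.00 and an exact two-sided permutation p of 0.1. Its size rested on those arrays: it was -0.52 without contralateral replicate 1 (limma unadjusted p = 0.103) and -0.47 without ipsilateral replicate 3 (unadjusted p = 0.0801). It was -0.61 with the level of choroid plexus markers in the model (unadjusted p = 0.0977), and ipsilateral array 1 alone stood -0.50 from the contralateral mean. Atf3, a stress-induced member of the ATF branch that marks injured neurons, measured 3.98, 4.05 and 4.17 ipsilaterally and 4.21, 3.83 and 3.74 contralaterally. It stayed dim on all 6 arrays, the sides overlapped, and a fit without the filter gave 0.14 with a 95% interval of -0.19 to 0.48. In all, 3 of the 7 tested probe sets (Fos, Maff and the brighter one of Jun) had sides that did not overlap, where 6.26% of all probe sets tested did (3.44% lower and 2.82% higher).

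**Figure D2:**
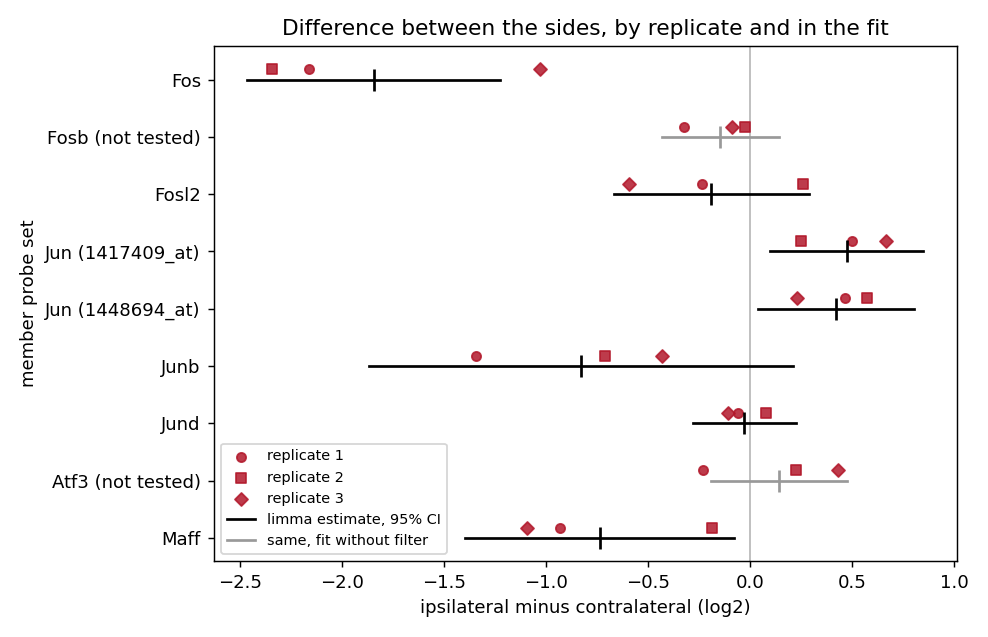
Ipsilateral minus contralateral difference (log2, x axis) of each AP-1 family probe set (y axis), with the 3 replicates as red marks and the limma estimate with its 95% interval as a line, grey where the probe set was too dim to test. Fos stands apart at -1.85, Jun is at 0.47 and 0.42, and the interval of Junb, from -1.87 to 0.21, is the widest.

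Members were compared with each other by the log2 ratio of a Fos-type to a Jun-type probe set within each array, which shows unequal change and says nothing of which transcript was more abundant. The ratio of Fos to Jun was -1.05, -1.15 and -1.24 on the ipsilateral arrays and 1.61, 1.45 and 0.46 on the contralateral arrays. It was thus lower on each ipsilateral array than on any contralateral one, as was the ratio to Jun of 56.4% of all probe sets tested, with a mean change of -2.32, so that Fos relative to Jun was 4.99-fold lower. The change was -2.66, -2.59 and -1.70 by replicate number. Replicate 3, the smallest for Fos alone, also gave the smallest change here. The ratio of Fos to Jund changed by -1.82 and that of Fos to Junb by -1.02, and for both the sides did not overlap, with the ipsilateral side lower. The ratio to Jund did so for 1.17% of all probe sets tested and that to Junb for 0.00654%, which was Fos alone. These shares depend on the Jun-type member used. Junb was itself lower ipsilaterally, by -0.83, with SDs of 0.61 and 0.76, and passed the minimum only through its contralateral mean. Few probe sets can separate below such a reference, so that share does not measure how particular Fos is. The size of the change relative to Junb rested on single arrays: it was -0.61 without ipsilateral replicate 2 and -1.35 without ipsilateral replicate 3, and 3 of the 6 Junb values lay below 4.

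**Figure D3:**
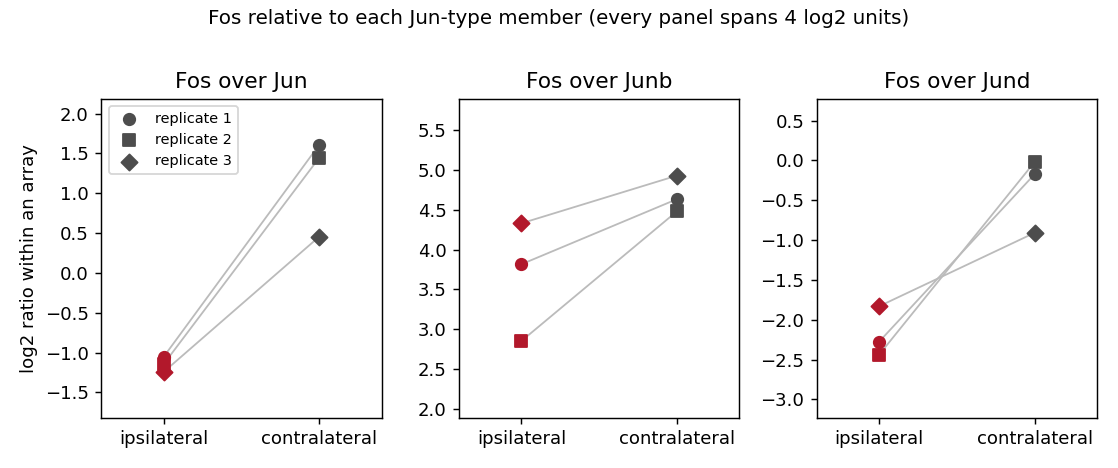
Log2 ratio of Fos to Jun, Junb and Jund within each array (y axis) for the 3 ipsilateral (red) and 3 contralateral (grey) arrays, joined by replicate number, with every panel spanning the same range. In all 3 panels the ipsilateral points lie below the contralateral ones, with mean changes of -2.32, -1.02 and -1.82.

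Fosl2 changed by -0.66 relative to Jun, by 0.64 relative to Junb and by -0.16 relative to Jund, and the sides overlapped for each. Single arrays moved these values. The change relative to Jun ran from -0.95 without ipsilateral replicate 2 to -0.38 without ipsilateral replicate 3. That relative to Junb ran from 0.36 without contralateral replicate 2 to 1.14 without contralateral replicate 3. That relative to Jund ran from -0.32 without ipsilateral replicate 2 to -0.06 without contralateral replicate 3. Without replicate 3 of both sides the change relative to Jund was 0.0008. Fosb was too dim on both sides to show a decrease, so its ratios (-0.62, 0.68 and -0.12) follow the Jun-type member and are not read as changes of Fosb. Of the 9 pairs compared, 4 had sides that did not overlap, 3 of them sharing the Fos values and the other being Fosb over Jun. Each had an exact two-sided permutation p of 0.1, the smallest possible, and 0.225 after Benjamini-Hochberg adjustment over the 9 pairs. Among the Jun-type members themselves, a comparison chosen after the values were seen, Jun was higher relative to Junb by 1.30 and relative to Jund by 0.50 on the infused side, in 3 of 3 replicates each, and Junb lower relative to Jund by -0.80 (exact permutation p = 0.2, 0.1 and 0.2, and 0.2 for each after adjustment over 3 pairs).

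Over the 6 arrays, as a description, Fos correlated at -0.74 and -0.88 with the 2 Jun probe sets, at 0.72 with Junb and at 0.67 with Maff, and at 0.18 with Jund. The brighter Jun probe set and Maff were nearly mirror images, at -0.99, but the dimmer Jun probe set correlated with Maff at only -0.78. All these values share the same 6 arrays, tissue pieces and normalization. Among 8748 other named genes, those whose pattern was most like that of Fos by Pearson correlation over the 6 arrays were Srgn (0.985), Rasl11b (0.984), Ecsit (0.980), Fh1 (0.978), Tmem184c (0.976), Lamp5 (0.971), Fam20c (0.963) and Rem2 (0.963). Their own differences were smaller, from -0.60 for Fam20c and -0.57 for Rem2, a GTPase that restrains calcium channels, down to -0.11 for Fh1. Those most like Junb were Miga2 (0.985), Ddost (0.978), Kazald1 (0.978), Rnf114 (0.977), Xpnpep1 (0.976), Gabarapl1 (0.975), Rasd2 (0.974) and Hsd17b12 (0.973), with differences between -0.50 for Rasd2 and -0.06 for Gabarapl1. The lists for Fos and Junb shared no gene.

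**Figure D4:**
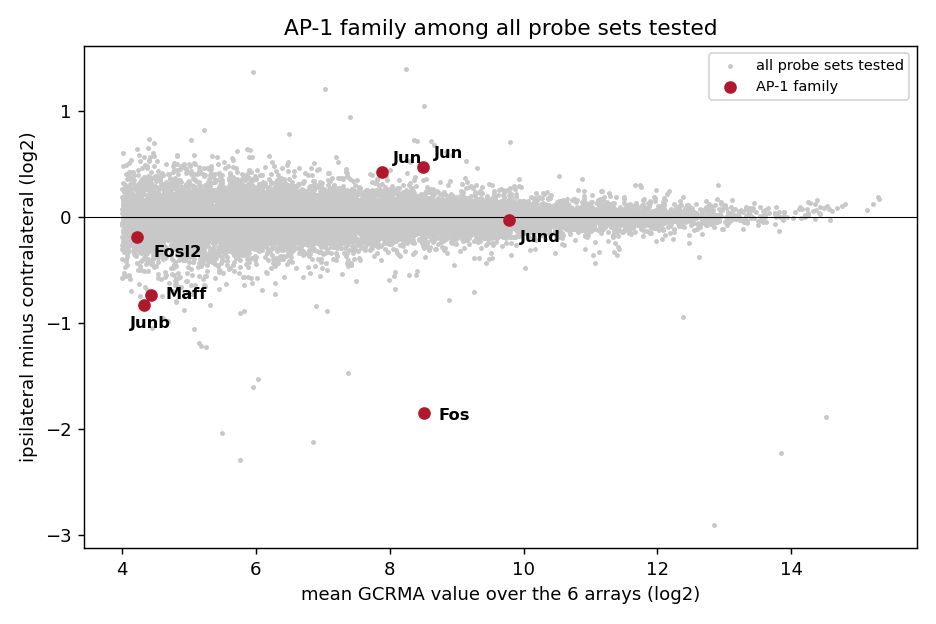
Mean GCRMA value over the 6 arrays (log2, x axis) against the ipsilateral minus contralateral difference (log2, y axis) for the 15298 probe sets tested (grey), with the 7 tested AP-1 family probe sets in red. Fos, at a mean of 8.51, lies well below the cloud of probe sets of like signal, Jun lies at its upper edge, and Junb and Maff lie among dim probe sets.

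The genes around the family were read from 5 lists. Over all 8754 genes tested, 50.9% were lower ipsilaterally, the median difference was 0.00 when rounded and 2.43% had an unadjusted limma p under 0.05, so the lists are given beside those values. Of the 6 tested AP-1 genes, 5 were lower and 1 was higher, with a median of -0.46. Other proteins that dimerise with this family, from the ATF, Maf, CNC and Bach branches, were split, with 8 of 14 tested genes lower, a median of -0.05 and 2 with an unadjusted p below 0.05, both lower. Atf4, the effector of the integrated stress response, measured 8.70, 8.61 and 8.67 ipsilaterally and 8.89, 9.07 and 8.96 contralaterally, a difference of -0.31 (limma unadjusted p = 0.0109) with sides that did not overlap. Bach2, a repressor that binds DNA with small Maf proteins such as Maff, differed by -0.45 (unadjusted p = 0.0311) and Maf by -0.46 (unadjusted p = 0.0813). Fosl1 and the Batf genes were too dim to test.

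In the list of CREB and SRF pathway factors, which also held Mef2 genes, 4 of 12 were lower. The median was 0.09, and 1 gene had an unadjusted limma p under 0.05. That was Mef2a, a calcium-responsive factor, which was higher by 0.29 (limma unadjusted p = 0.0236), at 10.07 ± 0.13 ipsilaterally and 9.78 ± 0.03 contralaterally (n = 3 each). Creb1, which binds the CRE of Fos, differed by -0.50 (unadjusted p = 0.0661) on a dim probe set, and Elk1, the partner of SRF, by 0.63 (unadjusted p = 0.0680). Creb1 averaged 3.99 ipsilaterally and 4.49 contralaterally, so it passed the minimum of 4 only through the side where it was higher. With the replicate block, which rests on a pairing the labels do not state, Creb1 had an unadjusted limma p of 0.0278. Of the kinases that induce or phosphorylate AP-1 proteins, 4 of 12 were lower, with a median of 0.05 and 0 with an unadjusted limma p below 0.05. The JNK genes Mapk8, Mapk9 and Mapk10, whose proteins phosphorylate Jun, differed by 0.07, -0.06 and 0.02, and the 3 of smallest p, Rps6ka3, Prkacb and Map3k5, by 0.16, 0.20 and 0.27.

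Genes described as AP-1 targets showed no common direction: 7 of 13 tested were lower, the median was 0.00 when rounded, and 3 lower and 1 higher had an unadjusted p below 0.05. The 3 of smallest p are given. Hmox1, the heme-degrading enzyme gene, differed by -0.34 (limma unadjusted p = 0.0297), Nts, the neurotensin precursor gene, by -0.40 (unadjusted p = 0.0405) and Sst, the somatostatin gene, by 0.27 (unadjusted p = 0.0412), each in the same direction in 3 of 3 replicates. Ccnd1, the cyclin D1 gene, was the third lower one, at -0.31. With the replicate block Sst had an unadjusted limma p of 0.0571. The protease and inhibitor genes of that list, Mmp3, Mmp9, Mmp13, Plau, Plaur and Timp1, were too dim to test. Other immediate early genes were lower in 10 of 12 cases, with a median of -0.19 and 3 at an unadjusted p under 0.05, all lower. Dusp1, a MAP kinase phosphatase, measured 8.95, 8.98 and 8.79 ipsilaterally and 9.72, 9.90 and 9.22 contralaterally, with no overlap. Nr4a1, an orphan nuclear receptor, measured 6.32, 6.71 and 6.85 ipsilaterally and 7.70, 7.85 and 6.98 contralaterally, again with no overlap. In both, as in Fos and Junb, contralateral replicate 3 was the lowest contralateral array, and in Ier2, which differed by -0.37, it was so too, at 6.44 against 6.83 and 6.64. Fos, Junb and these 3 genes thus share 1 contralateral array of lower level, and Fos still differed by -1.03 within replicate 3.

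**Figure D5:**
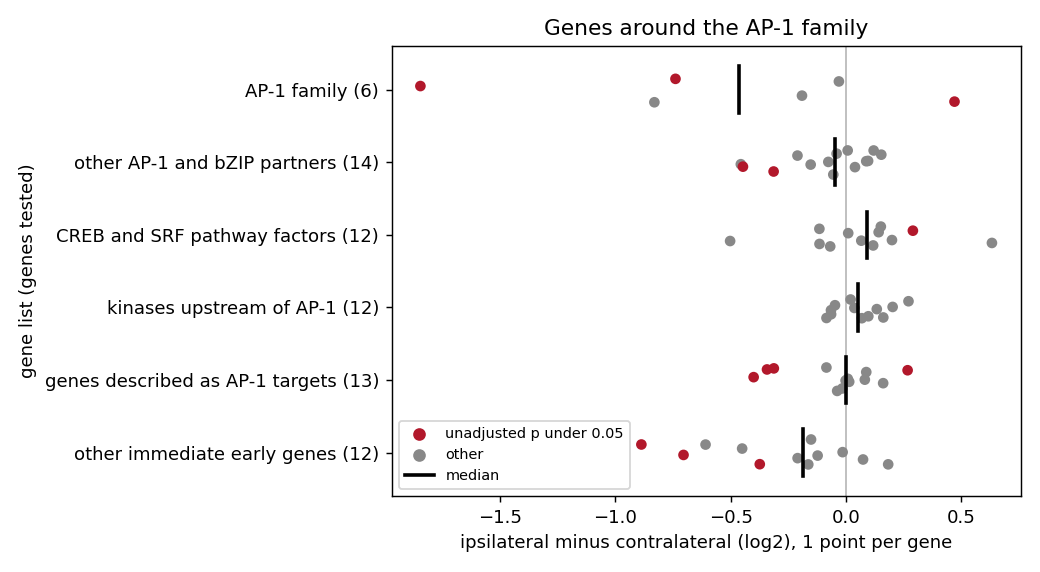
Ipsilateral minus contralateral difference (log2, x axis) of every tested gene of the AP-1 family and of 5 lists around it (y axis), 1 point per gene, red at an unadjusted limma p under 0.05 and with the median as a black bar. The AP-1 family and the other immediate early genes have medians of -0.46 and -0.19, and the other 4 lists lie between -0.05 and 0.09.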

How the data were processed

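Total RNA of 6 pooled samples was measured, 1 array each. The authors deposited log2 expression values per probe set made with GCRMA, which the submitters' processing notes name; it uses probe sequences to correct background, then normalizes across arrays and combines the probes of each set. For its version and settings, nothing is given in the sources used here. That the scale is log2 follows from a range of 1.40 to 16.01. A change shared by most genes would be lost in normalization.

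The sample descriptions gave the side and the replicate number. Of 22690 probe sets, 20393 had 1 gene symbol, 691 several and 1606 none in the platform annotation. The 64 control probe sets and 7328 with a mean at or below 4 were left out, and 15298 were tested with limma 3.58.1 in R 4.3.3 (lmFit, eBayes; ipsilateral minus contralateral, no block, Benjamini-Hochberg, threshold 0.05). Exact permutation tests used SciPy 1.17.1. A gene was represented by its probe set of highest mean. Sequences are from RefSeq, build GRCm38.p6.

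All 8 members were named with every probe set, as well as at most 3 genes per list by smallest p and the 8 genes of most alike pattern. Ccnd1, Mapk8, Mapk9, Mapk10, the dim genes named and Kcna1, Kcnc1, Glra1, Slc6a5 and Hoxb3 were named after their values were seen. Members and lists were chosen with earlier results of these data known.

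Since 1 ear per mouse was infused and each replicate was a pool, arrays of a number may be both sides of the same mice, which the labels do not state. The fit with a replicate block and the values by replicate number rest on that reading. The main fit and the exact permutation tests treated the arrays as unpaired. Deviations from the mean of the side correlated, for arrays of the same number, at 0.09, 0.04 and 0.57 across probe sets, and those of other pairs between -0.37 and 0.30. On simulated data made from the real means and spreads of 15298 probe sets, with 200 changed in each of 10 runs, limma recovered 69.1% of changes of size 1 and 93.9% of size 2, with 5.4% of calls false. The simulated probe sets were drawn independently, so they held nothing shared by an array, such as uneven tissue content. These shares check the procedure and do not tell what share of real changes these 6 arrays could recover.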

Additional observations from a re-analysis of the deposited data

How the results depend on the processing

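Fos kept its direction and its side of the adjusted threshold under all 19 alternatives run, from -2.25 to -1.60, with an unadjusted limma p between 5.65e-06 and 0.00495. The change of Fos relative to Jun ranged from -2.68 to -2.10 over 14 alternatives, and relative to Junb from -1.35 to -0.61. Both Jun probe sets, Junb and Maff kept their direction under every alternative run for them (0.30 to 0.58, 0.31 to 0.59, -1.26 to -0.54 and -1.01 to -0.47). Jund turned to 0.047 without ipsilateral replicate 3 and to 0.01 without replicate 3 of both sides (lowest -0.10 without ipsilateral replicate 2), and Fosl2 to 0.011 without replicate 3 of both sides (lowest -0.42 without ipsilateral replicate 2); both were near 0 from the start. The count of 4 member probe sets at an unadjusted p under 0.05 was 1, Fos alone, with the level of choroid plexus markers in the model, and 1 to 5 when arrays or replicates were left out, with 1 without contralateral replicate 1, without ipsilateral replicate 3 or without replicate 1 of both sides. With the replicate block it was 5, adding Junb; the block changed no other call of a member. Leaving out both ipsilateral arrays low in those markers set 1 array against 3, with the spread taken from the contralateral arrays alone; its count of 1 and its 571 probe sets at an unadjusted p under 0.05 are no test of stability, and the lower ends of the Jun ranges come from it. The 0 probe sets past the adjusted threshold were 0 to 5 when arrays or replicates were left out: 5 without ipsilateral replicate 1 (Folr1, Kcne2, Kl, Sostdc1 and Ttr, all choroid plexus markers and lower) and 2 without replicate 1 of both sides (Sostdc1 and Kcne2), no member among them. The 364 at an unadjusted p under 0.05 of 15298 tested were 233 of 10987 with a minimum mean of 6 and 569 with the replicate block. Fosl2, Junb and Maff were below that higher minimum. Of the lists, lower genes were 13 of 21 without the filter against 8 of 14 among the other AP-1 and bZIP partners, and 2 of 6 with a minimum mean of 6 against 4 of 12 among the CREB and SRF factors, where the number of genes tested changed. Without replicate 1 of both sides they were 2 of 12 for the CREB and SRF factors, and for the kinases 2 and 1 against 4 of 12 when ipsilateral replicate 1 or both arrays numbered 1 were left out; the cause of these was not tested.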
